A study of Mus musculus with 6 samples.

Results

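Expression of 10 aldehyde dehydrogenase genes was followed in fibroblasts of the enthesis, where tendons and ligaments insert into bone. They were taken by symbol (Aldh1a1, Aldh1a2, Aldh1a3, Aldh1a7, Aldh1l1, Aldh1l2, Aldh2, Aldh3a1, Aldh3a2 and Aldh3b1), and all 10 were among the 17419 genes of the deposited table. The genes were chosen by their read counts in diseased against un-diseased samples, so their values in that comparison are given as a description and carry no test. Another 10 genes of the family, in the same table, served for comparison. The study sequenced RNA from entheseal fibroblasts of SKG mice, a strain that carries a Zap70 mutation and is prone to autoimmune arthritis. It had 3 samples labelled diseased, whose titles carry NTS, and 3 labelled un-diseased, whose titles carry UN; the labels do not spell out either abbreviation. Both groups were SKG, and the labels give no age and do not say that each sample was another animal, so the spread between samples may be technical.

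Aldehyde dehydrogenases oxidise reactive aldehydes to carboxylic acids, using NAD+ or NADP+ as electron acceptor. Aldh1a1, Aldh1a2 and Aldh1a3 make retinoic acid, the hormone-like ligand of the retinoic acid receptors, from retinaldehyde, and retinoic acid guides limb, cartilage and tendon development. Aldh1l1 and Aldh1l2 work on folates instead of free aldehydes, and Aldh2 and the Aldh3 enzymes clear aldehydes that come from ethanol, lipid peroxidation and lipid turnover.

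Sequence just upstream of the transcription start was available for 6 of the 10 genes, in 7 windows of 250 bases from RefSeq on GRCm38.p6. The 4 windows that belong to Aldh1a genes are shown, because RNA of these genes differed in level and direction. Each line gives the 100 bases before a start, 5′ to 3′ on the strand of the gene, with a CCAAT box and the octamer ATGCAAAT in capitals where present.
Aldh1a1, at its first annotated start, chr19:20492483-20492582, plus strand: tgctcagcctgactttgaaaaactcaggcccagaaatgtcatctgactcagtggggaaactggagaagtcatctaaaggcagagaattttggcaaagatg
Aldh1a1, at its second annotated start, chr19:20601868-20601967, plus strand: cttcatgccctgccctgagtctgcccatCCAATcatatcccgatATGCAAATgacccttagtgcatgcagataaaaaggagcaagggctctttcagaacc
Aldh1a7, chr19:20727557-20727656, minus strand: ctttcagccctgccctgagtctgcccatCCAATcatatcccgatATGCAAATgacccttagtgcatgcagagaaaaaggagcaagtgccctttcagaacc
Aldh1a2, chr9:71215689-71215788, plus strand: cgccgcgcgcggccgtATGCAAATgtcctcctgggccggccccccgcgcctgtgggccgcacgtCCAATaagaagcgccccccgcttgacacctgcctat
The first start of Aldh1a1 had neither motif in its window, and the other 3 windows had both. The sequences at the second start of Aldh1a1 and at that of Aldh1a7 differed at 6 of 100 bases. G and C made up 71% of the Aldh1a2 sequence, against 45% and 49% at the first and second start of Aldh1a1. Searched on both strands, the octamer was found in 1.6% of 32851 windows of 250 bases and CCAAT in 33.8%, and these searches were chosen after the sequences had been read. A retinoic acid response element was searched only in the exact spelling AGGTCA with a direct repeat of it after 5 or after 2 free bases. It matched none of the 7 windows. Each spelling matched 0.00913% of all windows, so 7 windows were too few for the lack of a match to tell anything. The antioxidant response element core TGACNNNGC matched 1 of the 7 windows, that of Aldh1a2, and 10.2% of all. The xenobiotic response element core GCGTG matched 2, those of Aldh1a2 and Aldh3a2, and 28.2% of all. A motif match here is a description of letters only.

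Total counts lay between 16720605 and 18290870 per sample. Levels are given as CPM, counts relative to the library total after TMM scaling, and 3 counts, the limit that a count of 0 allows, were worth 0.147 to 0.188 CPM for counting error only. Fibroblast markers were abundant in every sample (Col3a1 averaged 44400 ± 7110 CPM in diseased samples, against 27000 ± 6660 CPM in un-diseased samples; SD over 3 samples each). Of the 8, 6 had positive fold changes and Dcn was lower without overlap (6650 ± 230 CPM in diseased samples, against 9620 ± 568 CPM in un-diseased samples). For this list edgeR called 0 and limma-voom 0, an unadjusted p was under 0.05 for 4, DESeq2 called 4 and the block 1. For this and the next lists, the shares over all 13264 tested genes were 3.73% by edgeR, 11.4% by DESeq2 and 23.9% by the block. Over the same genes, limma-voom called 501, and 3685 had an unadjusted p under 0.05 by edgeR. The 6 tendon markers summed to 7010 to 9700 CPM in diseased samples, against 5080 to 5830 CPM in un-diseased samples, with 5 positive fold changes. Of these, Thbs4 and Fmod passed (log2 fold changes 1.16 and 1.02, adjusted p = 0.0357 and 0.0392 by edgeR's quasi-likelihood test). Comp was lower with overlapping groups (log2 fold change -0.16), and Tnmd also overlapped (0.27, adjusted p = 0.272 by edgeR). The summed CPM of 14 macrophage markers was 199 to 536 in diseased samples, against 48.2 to 257 in un-diseased samples. All 14 fold changes were positive, where 51.8% of all tested genes had a positive one. By edgeR 0 passed, and 5 had an unadjusted p under 0.05. DESeq2 called 2, limma-voom 0, and the fit with the replicate number as a block called all 14. Of these, Fcgr1 was at 0 in un-diseased replicate 3 and no other marker was at 0 in any sample. The 8 neutrophil markers summed to 52.4 to 139 CPM in diseased samples, against 4.46 to 120 CPM in un-diseased samples, and edgeR, DESeq2 and limma-voom called 0 of the 6 tested (unadjusted p under 0.05 for 1; block 3). The 7 endothelial markers summed to 47.4 to 64.8 CPM in diseased samples, against 57.5 to 83.2 CPM in un-diseased samples, a sum made up mostly of Tek (31.8 to 41.8 CPM, against 47.1 to 73.3 CPM). Of the 6 tested, 4 had positive fold changes (median 0.73), of which Cdh5, Tie1 and Erg did not overlap, and 1, Erg, passed (1.43, adjusted p = 0.0254 by edgeR). The 8 adipocyte markers summed to 104 to 218 CPM in diseased samples, against 260 to 328 CPM in un-diseased samples, a sum made up mostly of Lpl (94.5 to 210 CPM, against 238 to 313 CPM). Plin4 was lower (log2 fold change -1.37, adjusted p = 0.0347 by edgeR), and Adipoq, Plin1, Lep and Cidec did not pass the filter on low counts. The 7 epithelial markers summed to 1.19 to 2.86 CPM in diseased samples, against 3.85 to 6.38 CPM in un-diseased samples. Of these, Perp was lower (-1.58, adjusted p = 0.0368 by edgeR), and Krt8 and Krt18 were at 0 or 1 count in every sample. The 6 chondrocyte markers summed to 78.6 to 272 CPM in diseased samples, against 43.8 to 110 CPM in un-diseased samples, and the muscle markers to 9.33 to 10.7 CPM, against 10.2 to 12.9 CPM; edgeR, DESeq2 and limma-voom called 0 of either list, and 0 had an unadjusted p under 0.05. The calls of Thbs4, Fmod, Erg, Plin4 and Perp were each lost without any 1 of 5 libraries, that is all except un-diseased replicate 1. In bulk RNA, fewer cells of a type and less RNA per cell cannot be told apart, and the part of these cell types in the results below was not tested.

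Among the members, Aldh3a1 and Aldh1a3 were much lower in diseased samples, Aldh1a1 was lower, and Aldh1a2 was higher. The folate enzymes Aldh1l1 and Aldh1l2 were modestly higher, Aldh2 was slightly lower, and Aldh3a2 and Aldh3b1 overlapped between the groups. Aldh1a7 was close to unread. For 7 members the diseased and un-diseased samples did not overlap, 3 of them higher and 4 lower in diseased; of all 13264 genes that passed the filter on low counts, 31.9% did not overlap (16.5% higher, 15.4% lower). The fit over all genes called 2 of the 9 members that passed that filter, both lower, where 3.73% of all tested genes were called (1.61% higher and 2.13% lower). With the replicate number as a block it called 5, with 2 higher and 3 lower, where 23.9% of all tested genes were called (10.5% higher and 13.3% lower). DESeq2 called 4, with 1 higher and 3 lower, where 11.4% were called (4.79% higher and 6.65% lower). The calls of the first fit were Aldh3a1 and Aldh1a3, and that of Aldh1a3 was lost without diseased replicate 3 or un-diseased replicate 2, leaving 1. Since this comparison was in view when the members were chosen, nothing is read from these counts.

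**Figure D1:**
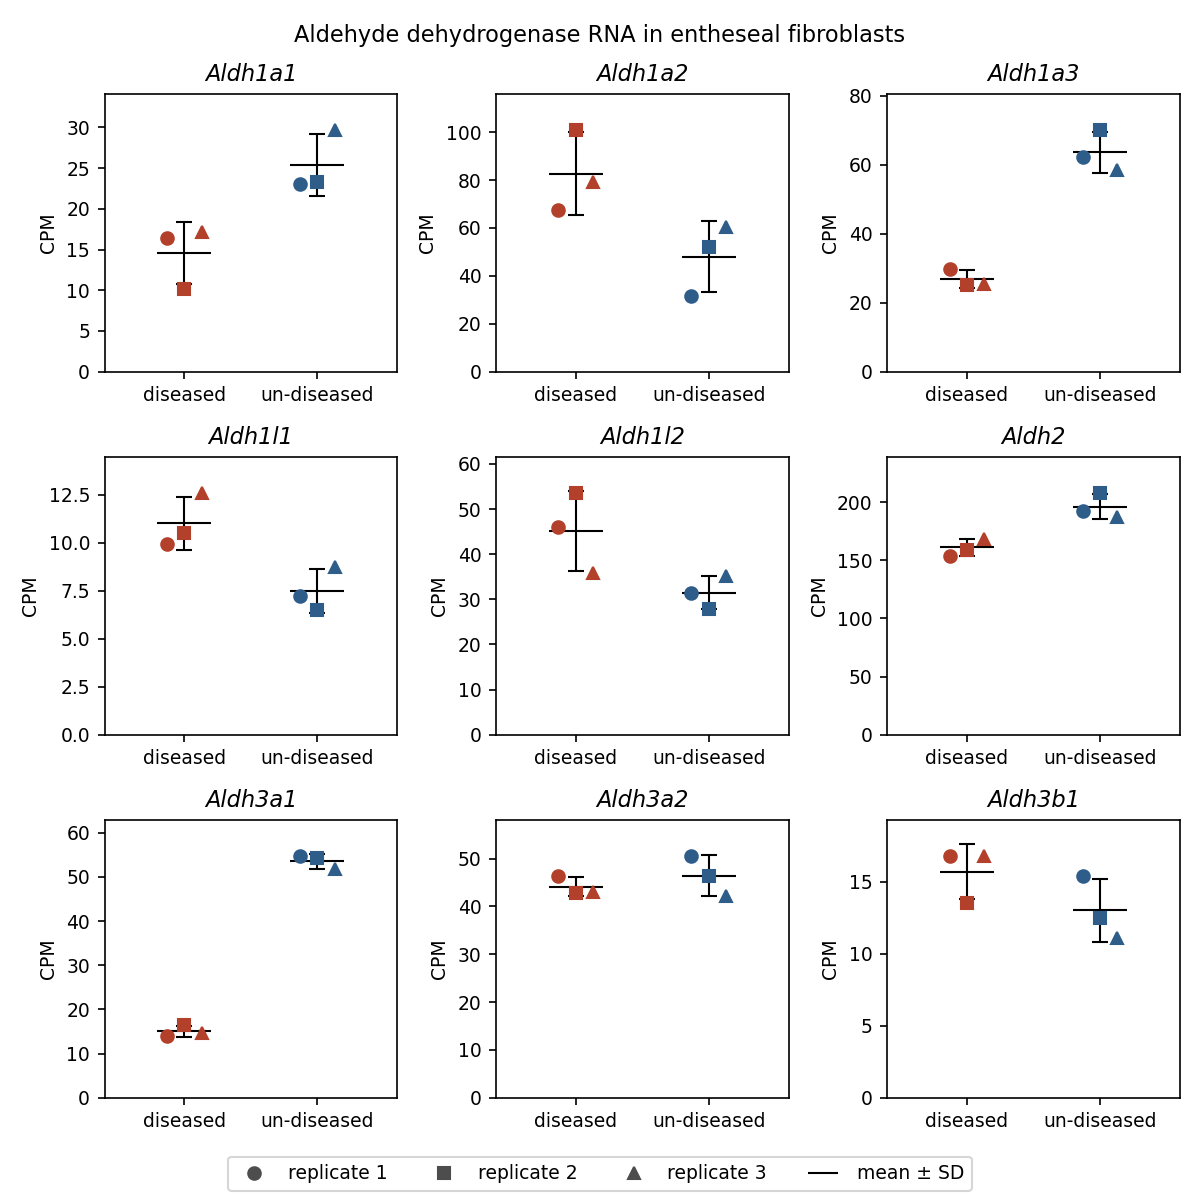
CPM (y axis, starting at 0) of the 9 members that passed the filter on low counts, with diseased samples in red on the left and un-diseased samples in blue on the right of each panel; symbols mark replicates 1 to 3, and the horizontal lines and bars are the mean ± SD. The groups are apart for 7 genes and overlap for Aldh3a2 and Aldh3b1, and the widest gap is that of Aldh3a1, with 13.9 to 16.5 CPM in diseased and 51.7 to 54.8 CPM in un-diseased samples.

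Of the enzymes that make retinoic acid, Aldh1a2 is the one on which early embryos depend most. Its gene (19378, chromosome 9, 71215789 to 71296243 on GRCm38) had 67.4, 101 and 79.3 CPM in diseased replicates 1, 2 and 3, against 31.5, 52.2 and 60.3 CPM in the un-diseased ones. Every diseased sample lay above every un-diseased one, but the nearest values, 67.4 and 60.3 CPM, were closer than the samples within either group were spread. The means were 82.7 ± 17.3 CPM in diseased samples, against 48.0 ± 14.8 CPM in un-diseased ones (SD, n = 3 each), giving a log2 fold change (diseased minus un-diseased) of 0.79 with a standard error (SE) of 0.25. The difference between samples that share a number was 1.09, 0.96 and 0.40 on the log2 scale for numbers 1, 2 and 3. Diseased replicate 2, the highest in Aldh1a2, was also the highest in summed macrophage markers, at 536 CPM. Un-diseased replicate 3, the highest of its group in Aldh1a2, had the lowest macrophage sum, 48.2 CPM. The summed fibroblast markers followed the order of Aldh1a2 within both groups, at 81700, 115000 and 103000 CPM in diseased replicates 1, 2 and 3. In un-diseased replicates 1, 2 and 3 they were 60800, 61300 and 87100 CPM. The part of either cell type in the level of Aldh1a2 was not tested.

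Aldh1a3, which makes retinoic acid in eye, nose and many epithelia, went the other way. The gene (56847, chromosome 7, 66390892 to 66427477) had 29.8, 25.1 and 25.5 CPM in the diseased replicates and 62.2, 70.1 and 58.5 CPM in the un-diseased ones. No sample of either group came near the other group. Its mean in diseased samples was 26.8 ± 2.61 CPM, 42.1% of the 63.6 ± 5.97 CPM in un-diseased samples, and the log2 fold change was -1.25 (SE 0.12). All 3 numbered differences were of similar size, at -1.06, -1.48 and -1.20.

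Aldh1a1, a cytosolic enzyme known as a marker of some stem and progenitor cells, was also lower in diseased samples. Diseased replicates 1, 2 and 3 had 16.4, 10.2 and 17.1 CPM, against 23.1, 23.3 and 29.7 CPM in the un-diseased replicates. The groups did not overlap, and diseased replicate 2 was the lowest of all 6. The log2 fold change of this gene (11668, chromosome 19, 20492583 to 20643463) was -0.80 (SE 0.21), from 14.6 ± 3.81 CPM in diseased and 25.4 ± 3.77 CPM in un-diseased samples.

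Aldh1a7 (26358, chromosome 19, 20692953 to 20727556) is a rodent relative of Aldh1a1 that lies 49489 bases from it on the opposite strand. It had 0 counts in all 3 diseased samples and 0, 1 and 1 counts in un-diseased replicates 1, 2 and 3, under the limit of 3 counts, and did not pass the filter. Aldh1a1 had 164 to 480 counts per sample, and the table does not say which of its starts, the second of which nearly matches that of Aldh1a7 upstream, they came from. The GENCODE M21 transcripts that were compared, of 2053 bases for Aldh1a1 and 2066 bases for Aldh1a7, were identical at 89.6% of 2050 aligned bases. None of the 1904 windows of 150 bases, the length of a read, in the Aldh1a1 transcript occurred unchanged in the Aldh1a7 transcript. Error-free reads of full length from these transcripts could therefore be told apart. Of 1979 shorter windows of 75 bases, 50 did occur in the Aldh1a7 transcript.

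Because the Aldh1a genes share a reaction, their levels were also added up per kilobase of exon, the only scale on which levels of different genes are compared here. The sum over Aldh1a1, Aldh1a2 and Aldh1a3 was 48.6 ± 5.74 CPM per kilobase in diseased samples, against 46.1 ± 7.61 in un-diseased samples (SD over 3 samples each), and the groups overlapped. Aldh1a2 made up 68.7%, 81.9% and 73.1% of that sum in diseased replicates 1, 2 and 3, against 37%, 47.4% and 51% in the un-diseased replicates. The share of Aldh1a3 was 12.6% ± 2.65 in diseased and 31.7% ± 6.04 in un-diseased samples, and that of Aldh1a1 12.8% ± 4.39 and 23.1% ± 2.86. A summed level that differed by less than its spread was therefore made up differently, with no overlap between the groups in the share of any of the 3 genes.

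**Figure D2:**
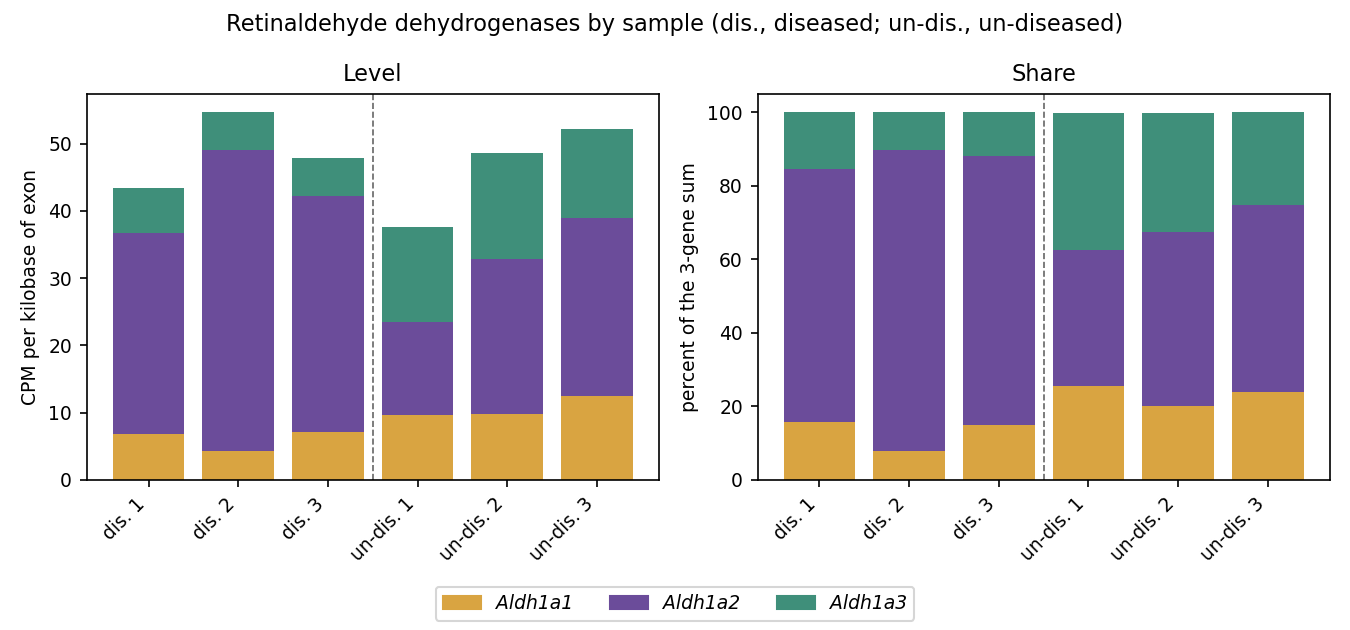
Stacked bars of Aldh1a1, Aldh1a2 and Aldh1a3 in each sample, with the 3 diseased samples left of the dashed line and the 3 un-diseased samples right of it. The left panel gives CPM per kilobase of exon and the right panel the percent of the 3-gene sum; the bar heights on the left overlap between the groups, and the Aldh1a2 part takes 68.7% to 81.9% in diseased and 37% to 51% in un-diseased samples.

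Aldh1l1 is the cytosolic 10-formyltetrahydrofolate dehydrogenase, which takes one-carbon units out of the folate pool, and Aldh1l2 is its mitochondrial counterpart. Aldh1l1 (107747, chromosome 6, 90550768 to 90599171) had 9.92, 10.5 and 12.6 CPM in the diseased replicates and 7.24, 6.51 and 8.73 CPM in the un-diseased ones, a log2 fold change of 0.55 (SE 0.17). The groups did not overlap, by a gap of about the size of their SDs, 1.39 and 1.13 CPM. Aldh1l2 (216188, chromosome 10, 83487447 to 83534146) had 46, 53.6 and 35.9 CPM in the diseased replicates, against 31.4, 27.9 and 35.1 CPM in the un-diseased ones, a log2 fold change of 0.52 (SE 0.16). Diseased replicate 3 barely exceeded un-diseased replicate 3, and the numbered differences were 0.55, 0.94 and 0.03. Per kilobase, Aldh1l2 had 1.96 to 3.49 times the level of Aldh1l1 in diseased samples, against 2.76 to 2.97 times in un-diseased samples, so the ratio overlapped between the groups.

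Aldh2 is the mitochondrial enzyme that oxidises acetaldehyde and the lipid peroxidation product 4-hydroxynonenal. It had the highest level per kilobase of the members over all samples. The gene (11669, chromosome 5, 121566027 to 121593824) had 154, 159 and 168 CPM in the diseased replicates and 192, 208 and 187 CPM in the un-diseased ones. Its groups did not overlap although the difference was small, with a log2 fold change of -0.28 (SE 0.10) and a diseased mean at 82.1% of the un-diseased one. Across the 6 samples, the log2 CPM of Serpina3c, Trib3 and LOC105244208 followed that of Aldh2 most closely, with Pearson's r of 0.9961, 0.9958 and 0.9918; these values describe 6 samples in 2 groups and the best of all tested genes.

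Aldh3a1, a cytosolic enzyme abundant in the cornea and inducible through the aryl hydrocarbon receptor in liver, showed the lowest ratio of diseased to un-diseased among the members that passed the filter. Its gene (11670, chromosome 11, 61208510 to 61218418) had 13.9, 16.5 and 14.6 CPM in diseased replicates 1, 2 and 3, against 54.8, 54.4 and 51.7 CPM in the un-diseased replicates. The samples of each group lay close together and far from the other group. The diseased mean of 15.0 ± 1.33 CPM was 27.9% of the un-diseased mean of 53.6 ± 1.69 CPM (SD, n = 3 each), and the log2 fold change was -1.84 (SE 0.10), with numbered differences of -1.97, -1.71 and -1.82. In the authors' deposited table, the log2 ratio is un-diseased over diseased, and it was 1.85 for Aldh3a1 and 1.26 for Aldh1a3. The sum of the epithelial markers, at most 6.38 CPM, was also lower in diseased samples, though not every single marker was. The part of epithelial cells in the values of Aldh3a1 and Aldh1a3 was not tested.

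The neighbouring gene Aldh3a2 (11671, chromosome 11, 61223417 to 61267528) lies 4998 bases beyond Aldh3a1 and encodes fatty aldehyde dehydrogenase, whose loss in humans causes Sjögren-Larsson syndrome. In contrast to its neighbour it had 44.1 ± 1.98 CPM in diseased and 46.4 ± 4.29 CPM in un-diseased samples, with a log2 fold change of -0.07 (SE 0.10). The diseased replicates had 46.3, 42.8 and 43.1 CPM and the un-diseased ones 50.6, 46.4 and 42.1 CPM, so the groups overlapped. Per kilobase, Aldh3a1 was 0.863 to 1.11 times the level of Aldh3a2 in diseased and 3.11 to 3.53 times in un-diseased samples. Aldh3b1 (67689, chromosome 19, 3913491 to 3930898), which acts on fatty aldehydes at membranes, had 16.8, 13.5 and 16.8 CPM in the diseased replicates and 15.4, 12.5 and 11.1 CPM in the un-diseased ones. Those groups overlapped as well, with a log2 fold change of 0.27 (SE 0.16).

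The order of the members per kilobase differed between the groups. In diseased samples Aldh2 (38.7 ± 1.72 CPM per kilobase) and Aldh1a2 (36.5 ± 7.65) stood at the top with overlapping values. Below them Aldh3a2, Aldh3b1, Aldh3a1, Aldh1l2, Aldh1a1 and Aldh1a3 lay between 8.29 and 6.04, each overlapping the next, and Aldh1l1 followed at 2.64 ± 0.332. In un-diseased samples Aldh2 led at 47.1 ± 2.56, followed without overlap by Aldh3a1 at 29 ± 0.913. Aldh1a2 (21.2 ± 6.55) overlapped Aldh1a3 (14.3 ± 1.35), Aldh1a1 stood at 10.6 ± 1.57, and Aldh3a2, Aldh3b1 and Aldh1l2 followed at 8.72, 6.76 and 5.17, each overlapping the next. Aldh1l1 was again the lowest of the 9, at 1.79 ± 0.272 CPM per kilobase. Of the 10 members, 4 (Aldh1a1, Aldh1l1, Aldh1l2 and Aldh3b1) share bases with another annotated gene, in each case a long noncoding RNA and for Aldh1a1 also a pseudogene. None of those genes was in the table, and with no strand setting given in the sources used here, reads from such partners cannot be told apart.

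**Figure D3:**
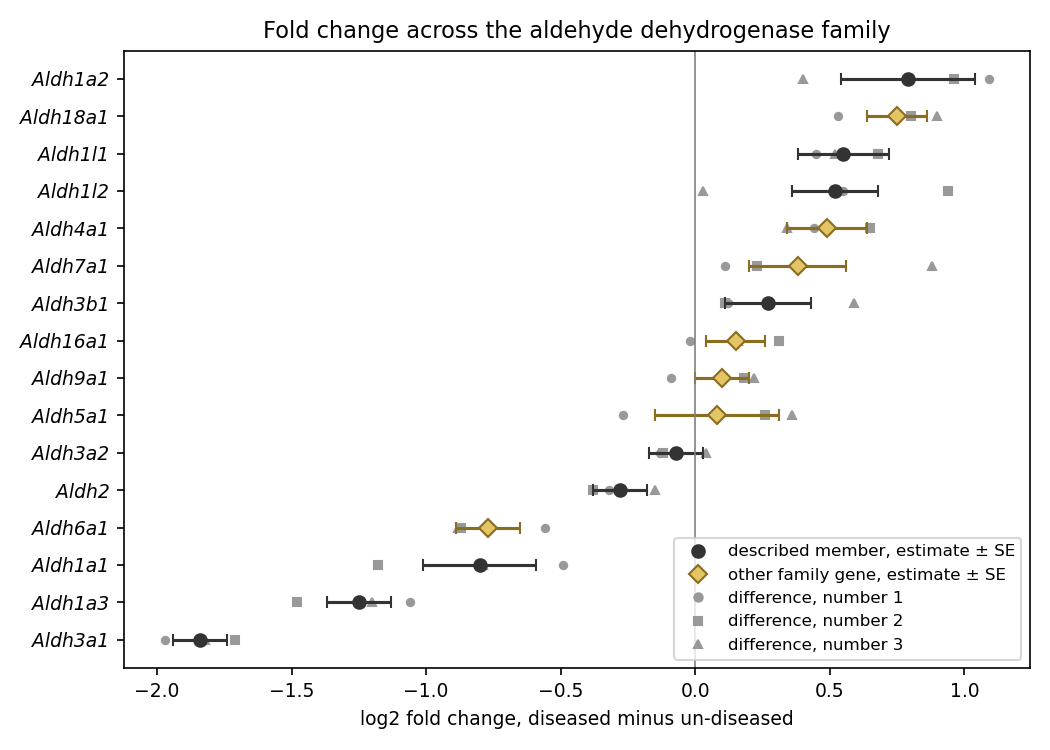
Log2 fold change (x axis, diseased minus un-diseased) of the 16 aldehyde dehydrogenases that passed the filter on low counts, ordered from highest at the top; dark circles are the described members and gold diamonds the other family genes, each with its SE, and small grey symbols are the differences between samples that share a replicate number. Aldh1a2 lies at 0.79 and Aldh3a1 at -1.84, and the grey symbols of Aldh3a1, Aldh1a3, Aldh1a1, Aldh2 and Aldh6a1 all lie left of 0. Those of Aldh1a2, Aldh1l1, Aldh1l2, Aldh3b1, Aldh4a1, Aldh7a1 and Aldh18a1 all lie right of 0.

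The other family genes are given with adjusted p-values, but their list, like the lists below, was chosen with earlier results of these data known. Of 11 listed, 10 were in the table and 7 passed the filter; 1 rose and 1 fell, where 3.73% of all tested genes were called, with a median log2 fold change of 0.15 against 0.02 over all tested genes. Aldh18a1, which makes the proline precursor pyrroline-5-carboxylate from glutamate, rose to 67.8 ± 7.89 CPM in diseased samples, against 40.3 ± 0.581 CPM in un-diseased samples (log2 fold change 0.75, SE 0.11, adjusted p = 0.0254 by edgeR). Aldh6a1, a mitochondrial enzyme of valine breakdown, fell to 29.7 ± 3.85 CPM in diseased samples, against 50.5 ± 2.02 CPM in un-diseased samples (-0.77, SE 0.12, adjusted p = 0.0254 by edgeR). Each was on its own side of the other group in 3 of 3 diseased samples. Both calls were lost without diseased replicate 2, diseased replicate 3, un-diseased replicate 2 or un-diseased replicate 3, with adjusted p by edgeR of 0.0515 to 0.132, and kept without the other libraries. Aldh6a1 shares 10712 bases with Bbof1, which is expressed at a low level, with 0.691 ± 0.219 CPM in diseased and 0.962 ± 0.115 CPM in un-diseased samples.

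Aldh4a1, which takes pyrroline-5-carboxylate back to glutamate, had 8.37 ± 1.00 CPM in diseased and 5.95 ± 0.151 CPM in un-diseased samples (log2 fold change 0.49, SE 0.15). Its adjusted p by edgeR was 0.108, and 0.0498 with the replicate block. The lysine-breakdown enzyme Aldh7a1 had 40.8 ± 3.33 CPM in diseased and 31.3 ± 7.52 CPM in un-diseased samples (adjusted p = 0.214 by edgeR), and its gene shares bases with Phax, as Aldh16a1 does with Pih1d1. Aldh9a1, of carnitine synthesis, Aldh16a1 and the succinic semialdehyde enzyme Aldh5a1 had log2 fold changes of 0.10, 0.15 and 0.08, with adjusted p by edgeR of 0.504, 0.41 and 0.842. Aldh1b1, Aldh3b2 and Aldh8a1 did not pass the filter, with at most 17, 4 and 1 counts in any sample.

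Around the Aldh1a enzymes, the retinoic acid carrier Crabp2 and the retinaldehyde reductase Dhrs3 rose, and the alcohol dehydrogenases Adh1 and Adh7, which can oxidise retinol, fell. Of 5 tested genes for retinoid uptake and carriage 1 rose and 0 fell, with a median log2 fold change of 0.85. Crabp2, which carries retinoic acid to its receptors, had 82.8 ± 15.8 CPM in diseased and 39.5 ± 8.29 CPM in un-diseased samples (1.07, SE 0.19, adjusted p = 0.0349 by edgeR). Of 12 tested genes that convert retinol and retinaldehyde 1 rose and 2 fell, with a median of -0.12. Dhrs3, which turns retinaldehyde back to retinol, was the rise, with 28.0 ± 4.93 CPM in diseased and 13.6 ± 0.656 CPM in un-diseased samples (1.04, SE 0.15, adjusted p = 0.0254 by edgeR). The falls were those of Adh7, with 9.08 ± 1.45 CPM in diseased and 18.2 ± 1.01 CPM in un-diseased samples, and Adh1, with 18 ± 4.53 and 36.7 ± 6.15 CPM (adjusted p = 0.0254 and 0.0443 by edgeR).

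Of the genes that clear, bind or respond to retinoic acid, those that passed were ones that also carry or convert retinoids. Of the 2 tested clearance genes 0 passed by edgeR (unadjusted p under 0.05 for 1, while DESeq2 called 1 and limma-voom 0). Over all 13264 tested genes, 3685 had an unadjusted p under 0.05 by edgeR, DESeq2 called 11.4% and limma-voom 501 genes. Cyp26b1, which breaks retinoic acid down, had 64.7 ± 12.7 CPM in diseased samples, against 118 ± 24 CPM in un-diseased ones (log2 fold change -0.86, SE 0.20). Its adjusted p was 0.0582 by edgeR, and 0.00154 once the replicate block was added. Of the 6 receptor genes 0 passed by edgeR (unadjusted p under 0.05 for 2, while DESeq2 and limma-voom called 0); Rarg had 97.4 ± 9.73 CPM in diseased and 92.1 ± 14.8 CPM in un-diseased samples. In a list of 11 tested genes known to respond to retinoic acid, 2 rose and 0 fell, and the median was 0.06. These 2 were Dhrs3 and Crabp2, which the lists above also hold.

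**Figure D4:**
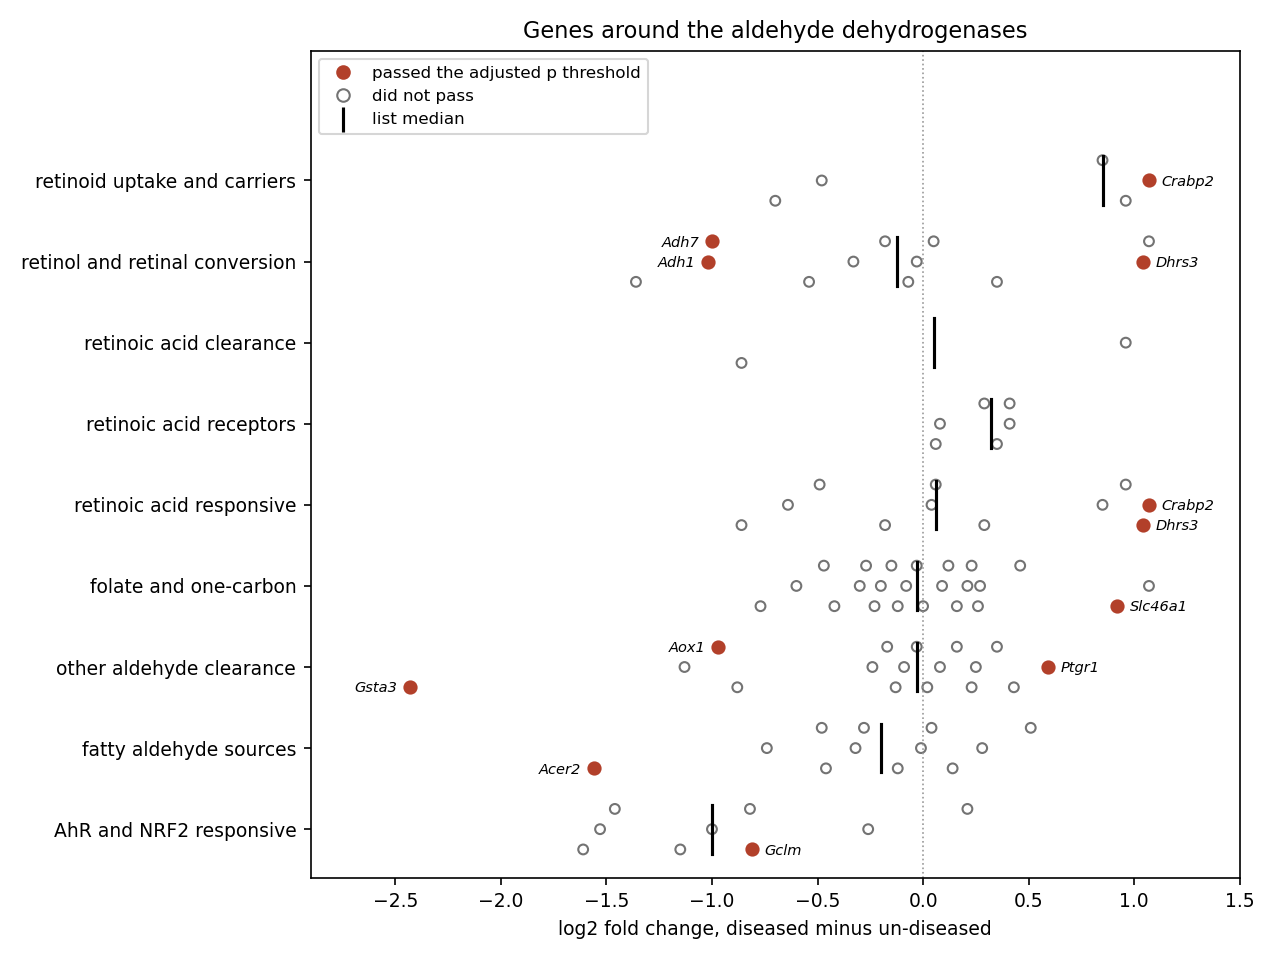
Log2 fold change (x axis, diseased minus un-diseased) of the tested genes in 9 lists around the aldehyde dehydrogenases; filled red circles with names passed an adjusted p of 0.05 by edgeR, open circles did not, and black bars are list medians. The median of the carriers of retinoids is 0.85 and that of the AhR and NRF2 responsive genes -1, while the medians of the other lists lie between -0.20 and 0.32.

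Of 23 tested genes of folate and one-carbon metabolism, to which Aldh1l1 and Aldh1l2 belong by function, 1 rose and 0 fell (median -0.03). It was Slc46a1, the proton-coupled folate transporter, with 5.51 ± 0.541 CPM in diseased and 2.89 ± 0.178 CPM in un-diseased samples (0.92, SE 0.19, adjusted p = 0.0435 by edgeR). Among 17 tested genes of other routes of aldehyde clearance 1 rose and 2 fell, with a median of -0.03. Ptgr1, a reductase of reactive enals, rose to 25.7 ± 1.94 CPM in diseased samples, against 17.1 ± 1.57 CPM in un-diseased samples (adjusted p = 0.0435 by edgeR). Aox1, an aldehyde oxidase, fell to 32.3 ± 3.76 CPM in diseased samples, against 63.2 ± 13.7 CPM in un-diseased samples (adjusted p = 0.0344 by edgeR). Gsta3, a glutathione transferase with close relatives whose reads may be shared, fell to 0.728 ± 0.22 CPM, against 3.99 ± 0.785 CPM (adjusted p = 0.0247 by edgeR).

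Of 12 tested genes that supply fatty aldehydes, the substrates of Aldh3a2 and Aldh3b1, 0 rose and 1 fell (median -0.20): Acer2, a ceramidase of the Golgi, had 0.794 ± 0.175 CPM in diseased and 2.34 ± 0.327 CPM in un-diseased samples (-1.56, SE 0.29, adjusted p = 0.0362 by edgeR). In the list of genes that respond to the aryl hydrocarbon receptor or NRF2, 0 of 9 rose and 1 fell, and the median was -1. Fold changes below 0 numbered 8 of 9, where 51.8% of all tested genes had a positive one. Without overlap, 4 of the 9 were lower, where 15.4% of all tested genes were, and the rest overlapped. An unadjusted p was under 0.05 for 5, DESeq2 called 3 and limma-voom 2. Over all 13264 tested genes, 3685 had such a p by edgeR, DESeq2 called 11.4% and limma-voom 501 genes. This list mixes genes of both responses, which were not told apart. Gclm, a subunit of the enzyme that starts glutathione synthesis, was the fall, with 20.5 ± 3.77 CPM in diseased and 35.9 ± 5.44 CPM in un-diseased samples (-0.81, SE 0.17, adjusted p = 0.0456 by edgeR).

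In all, 10 of 91 tested genes of these 9 lists passed, 4 higher and 6 lower, where 3.73% of all tested genes did. With the replicate block 30 passed, 8 higher and 22 lower, where 23.9% of all tested genes did. Rises and falls with the block numbered 2 and 1 for carriers, 1 and 4 for conversion, 0 and 1 for clearance, 1 and 0 for receptors and 3 and 3 for responsive genes. They numbered 2 and 1 for folate, 2 and 4 for other clearance, 0 and 3 for fatty aldehyde sources and 0 and 6 for the aryl hydrocarbon receptor and NRF2 list. The 10 calls depended on the libraries included. All 10 were lost without diseased replicate 3, un-diseased replicate 2 or un-diseased replicate 3. Losses numbered 9 without diseased replicate 1, 7 without diseased replicate 2 and 1, that of Adh1, without un-diseased replicate 1. Over all genes, calls went from 495 to 5, 10 and 37 without diseased replicate 3, un-diseased replicate 2 and un-diseased replicate 3. They went to 85, 123 and 1075 without diseased replicate 1, diseased replicate 2 and un-diseased replicate 1. The call of Adh1 was also lost with upper-quartile scaling (log2 fold change -0.94, adjusted p = 0.0602 by edgeR). All 10 fold changes kept their sign in the fits without 1 library. The groups of each of these genes did not overlap, so leaving out 1 library could hardly reverse a sign, and nothing is read from this.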

How the data were processed

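RNA of 6 samples was read in pairs on a BGISEQ-500, per the labels. The authors deposited estimated counts per gene, of which 9.6% were not whole and all were rounded here. A log2 ratio for each gene, with its p-value and its q-value, was deposited too and is used only where named. The submitters' processing notes name GRCm38, DESeq2 1.4.5, RSEM 1.3.1 and HISAT2 2.0.4 and no role for them.

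Genes passing filterByExpr (least count 10; 13264 genes) entered a contrast of diseased minus un-diseased with TMM scaling and the quasi-likelihood test of edgeR 4.0.16 (R 4.3.3), with Benjamini-Hochberg adjustment over all genes and a threshold of 0.05. DESeq2 1.42.0 and limma-voom (limma 3.58.1) were alternatives, with other scalings, filters and samples left out. The steps were checked on data simulated without pair effects, so the replicate pairing was not part of that check. Same-numbered samples departed from their group means in a correlated way (correlations 0.487, 0.578 and 0.276 for replicates 1, 2 and 3, numbers from the titles), so the replicate block was taken as a paired alternative. Pairs within a group differed beyond sampling noise (chi-square per gene 25.3 to 61.7).

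The members and the 20 lists were chosen with earlier results of these data known, and 1 listed gene is not reported here and was left out of the list counts. Beside the members and other family genes, up to 3 called genes with the smallest adjusted p per list are named, or the most abundant one, and the 3 genes whose log2 CPM follows that of the member with the highest level per kilobase most closely. The markers Dcn, Comp, Tnmd, Tek, Cdh5, Tie1, Lpl, Adipoq, Plin1, Lep, Cidec, Krt8, Krt18 and Fcgr1 were named after their values were seen. Reads from genes that share bases cannot be assigned from these files. CPM per kilobase uses the union of exons of protein-coding transcripts in GENCODE M21. Positions are 1-based, from RefSeq on GRCm38, which matched 17372 of 17419 genes.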

Additional observations from a re-analysis of the deposited data

How the results depend on the processing

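The fold change of every member that passed the filter kept its sign under every scaling, filter, tool and left-out sample that was run, except that of Aldh3a2, which lay between -0.14 and 0.01. For the 7 members whose groups did not overlap, leaving out a sample could hardly reverse the sign, so nothing is read from this. Leaving out each sample in turn gave -1.91 to -1.79 for Aldh3a1, -1.33 to -1.17 for Aldh1a3, -0.93 to -0.60 for Aldh1a1 and 0.55 to 0.98 for Aldh1a2. The number of calls did depend on the processing, and the cause was not tested. DESeq2 called 1517 genes over the whole table, 4 members and 19 pathway genes; the replicate block called 3167, 5 and 30. A threshold of 0.01 left 4 genes, 1 member, 0 other family genes and 0 pathway genes by edgeR. Leaving out each sample gave 5 to 1075 genes, 1 to 2 members, 0 to 2 other family genes and 0 to 18 pathway genes by edgeR. Where other family genes or pathway genes fell to 0, 3 to 4 and 24 to 27 of them had an unadjusted p under 0.05. In those fits, 2266 to 3992 genes of the whole table had such a p, of 13455 to 13538 tested. The replicate block changed no direction among the members. Each number has 1 sample in each group, so the block could hardly move these estimates. Upper-quartile scaling moved the median of all genes to 0.10 against 0.02, with 417 genes higher and 288 lower against 213 and 282. Depth limits what can be said of Aldh1a7, Aldh3b2 and Aldh8a1, which had at most 1, 4 and 1 counts.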
